A study of Mus musculus with 32 samples.

Results

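The clustered protocadherins are 57 mouse genes in 3 neighbouring clusters on chromosome 18, named alpha (13 genes), beta (22 genes) and gamma (22 genes). They were chosen by symbol alone, with no threshold on a measured value, as every gene named Pcdha, Pcdhac, Pcdhb, Pcdhga, Pcdhgb or Pcdhgc with a number in the 4 tables of raw counts. The family itself was picked with earlier results of these libraries known. All 57 had a row among the 55291 rows of the astrocyte table and of the oligodendrocyte table. The microglia table held 58 rows for them among 53700, because Pcdha11 has 2 Ensembl identifiers there, and the culture table held 57 among 17572, with 2 for Pcdha11 and none for Pcdhb1. All 32 libraries are of the genotype TDP-43_Q331K, mice with a mutant form of TDP-43, an RNA-binding protein tied to amyotrophic lateral sclerosis. The labels do not give the construct or its promoter, and no non-transgenic library was analysed here. Astrocytes sorted as ACSA+ cells, a surface marker of astrocytes, from cortices and spinal cords were sampled at 3 months (4 libraries), 6 months (5) and 10 months (2). Cells sorted for O4, a surface antigen of the oligodendrocyte lineage, came from the same tissues at 3 months (4) and 6 months (4). Microglia sorted for Cd11b came from cortices only, at 3 months (3) and 10 months (4). Primary astrocytes kept for 14 days in culture and replated received 40 µM Omomyc, a mini-protein that blocks MYC, for 48 h (3) or vehicle (3). The labels do not say whether libraries of a group are separate animals or cultures, so p-values measure the spread between these libraries, which may be technical.

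Clustered protocadherins are cadherin-like adhesion proteins of the cell surface, best known from neurons. Each alpha and gamma gene adds its own large variable exon, which encodes the extracellular and membrane-spanning part, to constant exons that all genes of the cluster share, while beta genes stand without constant exons. A neuron uses a few of these promoters, chosen at random through DNA methylation, the insulator protein CTCF and cohesin. The proteins bind their own kind on the facing cell and so give each neuron an identity of its own. The C-type genes at the end of the alpha and gamma clusters (Pcdhac1, Pcdhac2, Pcdhgc3, Pcdhgc4 and Pcdhgc5) are regulated differently from the others and are less subject to random choice. Astrocytes are known to make gamma protocadherins, which act in contacts between astrocytes and neurons.

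The gene structure limits what a count of a member means. In GENCODE vM21 (GRCm38) the alpha cluster spans chr18:36930184-37187661, the beta cluster chr18:37264938-37524479 and the gamma cluster chr18:37661793-37841873. The median member had 46.4% of its exon bases to itself in the alpha cluster, 100% in the beta cluster and 54.7% in the gamma cluster. The rest lay mainly in the constant exons at the 3′ end. The constant exons hold the 3′ ends of alpha and gamma transcripts, which is where a 3′ kit such as the one used for microglia reads. Pcdhga10 has 0 exon bases free of other genes, because the constant exons, the antisense gene Gm26672 and other annotated gene models cover them. It had 2 counts over the 11 astrocyte libraries and 1 over the 8 oligodendrocyte libraries, but 376 over the 7 microglial and 3772 over the 6 cultured libraries. Its near-zero level in the first 2 tables can therefore not be told apart from a loss in counting, and the same holds for Pcdha4, which has 404 such bases and had 0 and 2 counts.

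Depth ran from 6151583 to 20763190 counts per library for astrocytes, 9752907 to 18598533 for the oligodendrocyte lineage, 4145129 to 5612071 for microglia and 30117025 to 37470972 for the cultures. The members took 0.0470% to 0.0711% of the counts in astrocytes, 0.0202% to 0.0306% in the oligodendrocyte lineage, 0.0058% to 0.010% in microglia and 0.137% to 0.159% in culture. By sum, the astrocyte, myelin and microglial markers were highest where the labels place them. The summed level of 10 astrocyte markers was 23846 to 36339 CPM (counts relative to the library total, scaled by TMM within each table) in sorted astrocytes and 509 to 761 in the oligodendrocyte lineage. Of these 10, 9 were higher in astrocytes at 3 and 6 months, with both tables scaled together. Gfap was not called there (means 136 and 134 CPM). Astrocyte libraries also carried 14745 to 34033 CPM of 8 myelin markers, against 74634 to 163846 in the oligodendrocyte lineage. The 16 neuronal markers summed to 98.9 to 154 CPM in astrocytes and 206 to 314 CPM in the oligodendrocyte lineage. The 9 microglial markers summed to 24151 to 41856 CPM in microglia, 162 to 284 CPM in the other sorted cells and 1383 to 2918 CPM in culture. The cultures also carried 3507 to 6358 CPM of mural and fibroblast markers beside 7900 to 9574 CPM of astrocyte markers. Choroid plexus and ependymal markers ranged widely within groups, from 86.0 to 943 CPM in the O4 cells at 3 months and from 323 to 3810 CPM at 6 months. In bulk libraries of sorted cells, fewer cells of a type and less RNA per cell cannot be told apart.

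The gamma cluster held most of the clustered protocadherin counts in every cell type. It held a median of 82.3% of the members' counts in sorted astrocytes (range 76.8% to 85.8% over 11 libraries), 68.7% in the oligodendrocyte lineage (67.5% to 72.1%, 8 libraries), 94.0% in microglia (88.2% to 96.0%, 7 libraries) and 93.2% in culture (93.0% to 94.0%, 6 libraries). The beta cluster held 17.3% in astrocytes, 30.5% in the oligodendrocyte lineage, 6.03% in microglia and 5.09% in culture, as medians. Gamma genes share the 3′ ends that the microglial kit reads and beta genes do not, so the microglial shares need not follow transcript levels. The alpha cluster had few counts in the sorted cells. It summed to 1.94 to 4.22 CPM in astrocytes, 1.52 to 3.11 CPM in the oligodendrocyte lineage and 21.5 to 26.5 CPM in culture. No count fell on any alpha row in the 7 microglial libraries, which allows up to 0.0832 CPM per row over the pooled libraries, counting error only. The constant exons hold the 3′ ends that this kit reads, so these rows at 0 do not show that alpha transcripts are missing. Protocadherin levels can be set against each other between genes only per unit of length, and the deposited TPM of the 2 sorted tables allows that. By summed TPM, the gamma cluster held a mean of 79.1% in astrocytes and 66.6% in the oligodendrocyte lineage. These lengths include the constant exons. Per kilobase of exon shared with no other gene, a scale added after the data had been seen, the shares were 89.1% and 81.2%.

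**Figure D1:**
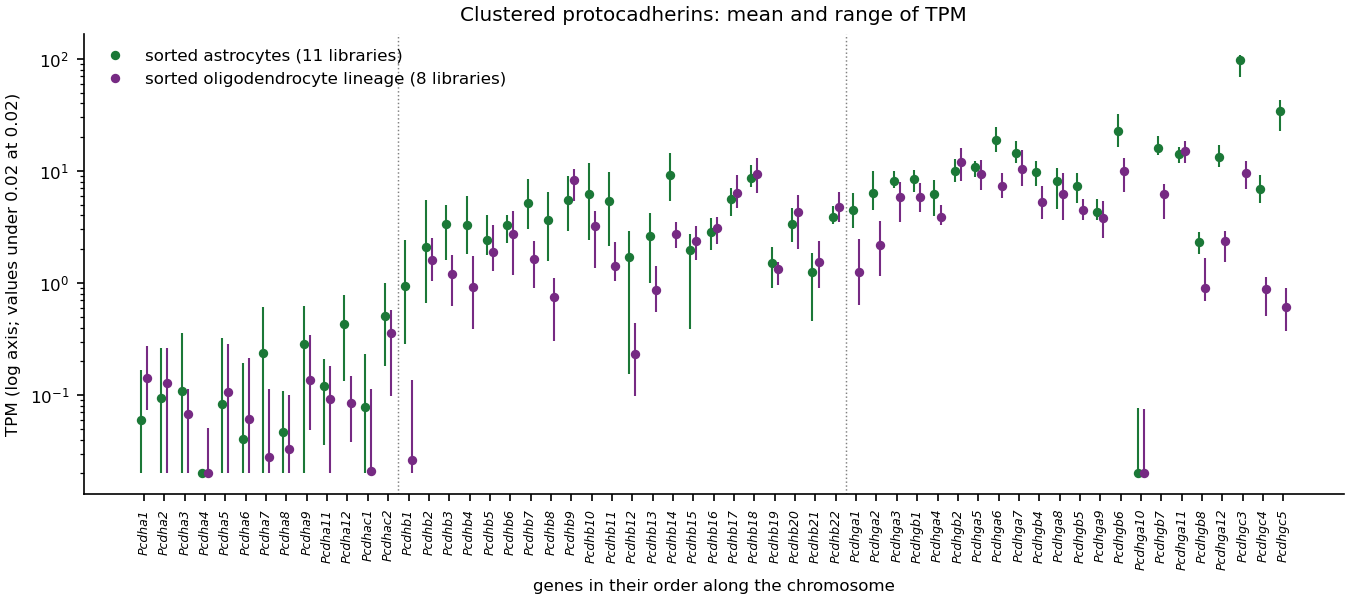
Mean TPM (points, log axis) and range over libraries (lines) of the 57 genes in chromosomal order, for sorted astrocytes (11 libraries) and the oligodendrocyte lineage (8 libraries). Dotted lines separate the alpha, beta and gamma clusters, and values under 0.02 are drawn at 0.02. Alpha genes lie at the bottom in both cell types, and at the end of the gamma cluster, for Pcdhga12 and the C-type genes, astrocytes lie far above the oligodendrocyte lineage.

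By TPM, whose lengths include the constant exons, a pair of C-type genes led the whole family in sorted astrocytes. The share of 100-base stretches found in no other gene's transcripts differed by gene. It was 36.6% for Pcdhgc3, 65.5% for Pcdhgc5 and 29.0% for Pcdhga11, so the order per unshared length may be another. Pcdhgc3 had a mean of 97.0 ± 11.6 TPM (SD, n = 11 libraries) and Pcdhgc5, known mainly from neurons of the postnatal forebrain, 34.4 ± 6.22 TPM. Their ranges did not overlap, at 69.0 to 109 TPM and 22.9 to 43.2 TPM. Pcdhgb6 followed with 22.9 ± 5.52 TPM, whose range of 16.2 to 32.3 TPM overlapped that of Pcdhgc5, and Pcdhga6 with 18.7 ± 3.07 TPM. Pcdhgc3 alone took a median of 29.3% of all gamma counts in astrocytes (26.9% to 33.5%). Over the libraries of all ages the highest beta genes were Pcdhb14 (9.26 ± 2.68 TPM), Pcdhb18 (8.68 TPM) and Pcdhb10 (6.24 TPM), and the highest alpha genes Pcdhac2 (0.511 TPM), Pcdha12 (0.431 TPM) and Pcdha9 (0.284 TPM). The beta order differed with age. At 3 months Pcdhb18 (8.63 ± 1.58 TPM, SD, n = 4) stood above Pcdhb14 (6.42 ± 0.81 TPM), and Pcdhb10, at 3.25 ± 0.62 TPM, ranked 8 of 22.

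In the oligodendrocyte lineage the highest genes lay closer together. Pcdhga11 had 14.99 ± 2.78 TPM (SD, n = 8), Pcdhgb2 12.04 ± 3.06 TPM, Pcdhga7 10.5 ± 3.22 TPM, Pcdhgb6 9.90 ± 2.39 TPM and Pcdhgc3 9.55 ± 2.12 TPM. The ranges of neighbours in this order overlapped, those of Pcdhga11 and Pcdhgb2 being 11.8 to 18.5 TPM and 8.18 to 15.97 TPM. Pcdhgc3 took a median of 8.71% of gamma counts there and Pcdhgc5 0.596%. Among beta genes Pcdhb18 (9.37 TPM), Pcdhb9 (8.28 TPM) and Pcdhb17 (6.32 TPM) were highest, and among alpha genes Pcdhac2 (0.359 TPM), Pcdha1 (0.142 TPM) and Pcdha9 (0.136 TPM).

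In microglia the members summed to 58.2 to 103 CPM. A mean of at least 1 CPM was reached by 13 of the 22 gamma genes and 1 beta gene, and 12 of the 22 beta genes and Pcdhgc3 had none in any of the 7 libraries. By CPM, which does not allow for length, Pcdhga6 had the most counts, at 15.4, 18.9 and 23.7 CPM at 3 months and 24.8, 18.6, 21.3 and 18.8 CPM at 10 months. Pcdhga10 ranged from 3.92 to 18.2 CPM and Pcdhga12 from 4.15 to 17.3 CPM. Pcdhb22 was the beta gene with most counts, with a mean of 3.86 CPM, ahead of Pcdhb18 (0.491 CPM) and Pcdhb20 (0.309 CPM). Pcdhgc3 shares exon bases with the antisense gene BC037039 and its constant exons with all other gamma genes, so its 0 in a 3′ library does not show that the transcript is missing.

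In cultured astrocytes Pcdhgc3 took a median of 56.2% of gamma counts (46.4% to 58.2% over 6 libraries). Its level was 768, 599 and 711 CPM with vehicle and 841, 805 and 765 CPM with Omomyc. Pcdhgc5 stood at 88.2 to 125 CPM and Pcdhgc4 at 30.8 to 256 CPM. The alpha genes with most counts were Pcdhac2 (mean 11.3 CPM), Pcdha12 (5.43 CPM) and Pcdha11 (1.14 CPM for the higher of its identifiers), and the beta genes Pcdhb22 (14.0 CPM), Pcdhb18 (9.64 CPM) and Pcdhb17 (8.06 CPM). These CPM are not scaled by length, so they give the share of counts and no order of transcript levels. Pcdhgc3 had the most gamma counts in sorted and in cultured astrocytes. The libraries of the 2 sources were made with different kits and counted separately, so no difference between them was tested.

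**Figure D2:**
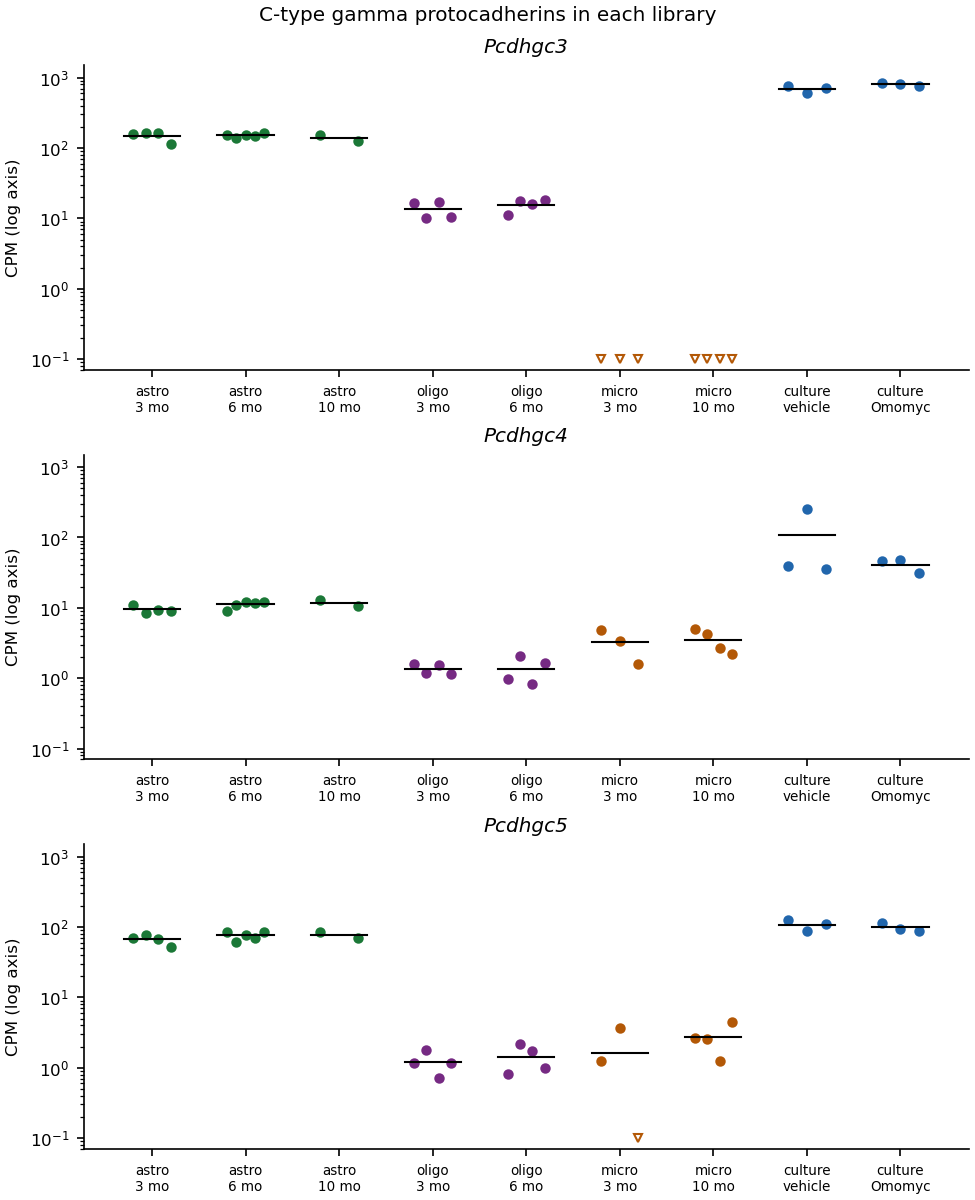
Level of Pcdhgc3, Pcdhgc4 and Pcdhgc5 in each of the 32 libraries, in CPM on a log axis, with a bar at each group mean. Open triangles are values at or under 0.1 CPM. Astrocyte libraries lie above those of the oligodendrocyte lineage for all 3 genes, Pcdhgc3 is at 0 in all microglia, and vehicle culture 2 stands apart for Pcdhgc4 with 256 CPM. Scales were set within each table.

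Astrocytes and the oligodendrocyte lineage were compared at 3 and 6 months, with both tables scaled together (9 and 8 libraries). Pcdhgc5, Pcdhgc3, Pcdhgc4 and Pcdhga12, at the end of the gamma cluster, were far higher in astrocytes. Several mid-cluster beta genes and most other gamma genes were also higher, while Pcdhb9 and a few others were lower. Of the 57 genes, 43 passed the filter on low counts. Of these, 22 were higher and 8 lower in astrocytes at an adjusted p under 0.05 (edgeR's quasi-likelihood test, adjusted over all 16363 genes tested). The background is high: 74.6% of all genes were called, 38.7% as higher and 35.9% as lower. The members' median log2 difference was 0.30, against 0.03 over all genes tested. By cluster, 14 of 21 tested gamma genes were higher and 2 lower, and 8 of 21 tested beta genes were higher and 6 lower. Of the alpha genes only Pcdhac2 passed the filter, with a log2 difference of 0.13 ± 0.32 (SE, adjusted p = 0.724).

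The C-type gamma genes separated the cell types fully. Pcdhgc5 was 45.6 to 78.3 CPM in the 9 astrocyte libraries (median 63.3) and 0.815 to 2.39 CPM in the 8 others (median 1.33), a log2 difference of 5.38 ± 0.16 (SE, adjusted p = 2.71e-16). Pcdhgc3 was 99.0 to 151 CPM against 11.6 to 20.0 CPM (medians 137 and 18.1), a log2 difference of 3.03 ± 0.13 (adjusted p = 3.84e-14). Pcdhgc4, known for its role in the survival of cortical interneurons, was 7.67 to 10.99 CPM against 0.891 to 2.26 CPM, a log2 difference of 2.58 ± 0.16 (adjusted p = 3.52e-12). The last gene of the A type, Pcdhga12, which lies next to them, was 18.8 to 24.0 CPM against 3.65 to 5.68 CPM, a log2 difference of 2.11 ± 0.10 (adjusted p = 2.86e-14). None of these 4 genes had overlapping groups. Groups did not overlap for 12 of the 43 tested members, against 39.1% of all genes. Of 15 tested neuronal markers 2 were higher in astrocytes, Celf4 (1.14 ± 0.23, adjusted p = 1.83e-04) and Syt1 (0.71 ± 0.20, 3.09e-03), and 6 were lower. Of 8 tested mural and fibroblast markers 7 were higher in astrocytes, of 8 choroid plexus and ependymal markers 4 were higher and 2 lower, and of 8 tested microglial markers 1 was higher and 5 lower. Their part in the protocadherin differences was not tested.

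Among the beta genes that passed the filter and the test, Pcdhb12 and Pcdhb8 differed most. Pcdhb1, which did not pass the filter, was 0.166 to 0.955 CPM in astrocytes and 0 to 0.119 CPM in the oligodendrocyte lineage. Pcdhb12 was 0.122 to 2.23 CPM in astrocytes and 0.087 to 0.395 CPM in the oligodendrocyte lineage, a log2 difference of 2.24 ± 0.35 (SE, adjusted p = 7.05e-06), with overlapping groups. Pcdhb8 was 1.44 to 4.02 CPM against 0.355 to 1.19 CPM (log2 difference 1.86 ± 0.26, adjusted p = 1.38e-06), without overlap. Its neighbour Pcdhb9 ran the opposite way, at 2.40 to 5.64 CPM in astrocytes and 5.01 to 11.01 CPM in the oligodendrocyte lineage (log2 difference -1.14 ± 0.16, adjusted p = 1.36e-06). Lower in astrocytes by less were Pcdhb20 (-0.58 ± 0.18), Pcdhb22 (-0.58 ± 0.11), Pcdhgb2 (-0.57 ± 0.10), Pcdhb17 (-0.44 ± 0.12) and Pcdhga11 (-0.34 ± 0.07), with adjusted p from 5.18e-05 to 6.94e-03, and the libraries of the 2 cell types overlapped for each of them. Pcdhb16 (-0.34 ± 0.13) and Pcdhb18 (-0.31 ± 0.12), at the same end of the beta cluster, completed the 8. Along the chromosome, the beta genes called higher lay between Pcdhb3 and Pcdhb14 and 5 of the 6 called lower between Pcdhb16 and Pcdhb22.

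**Figure D3:**
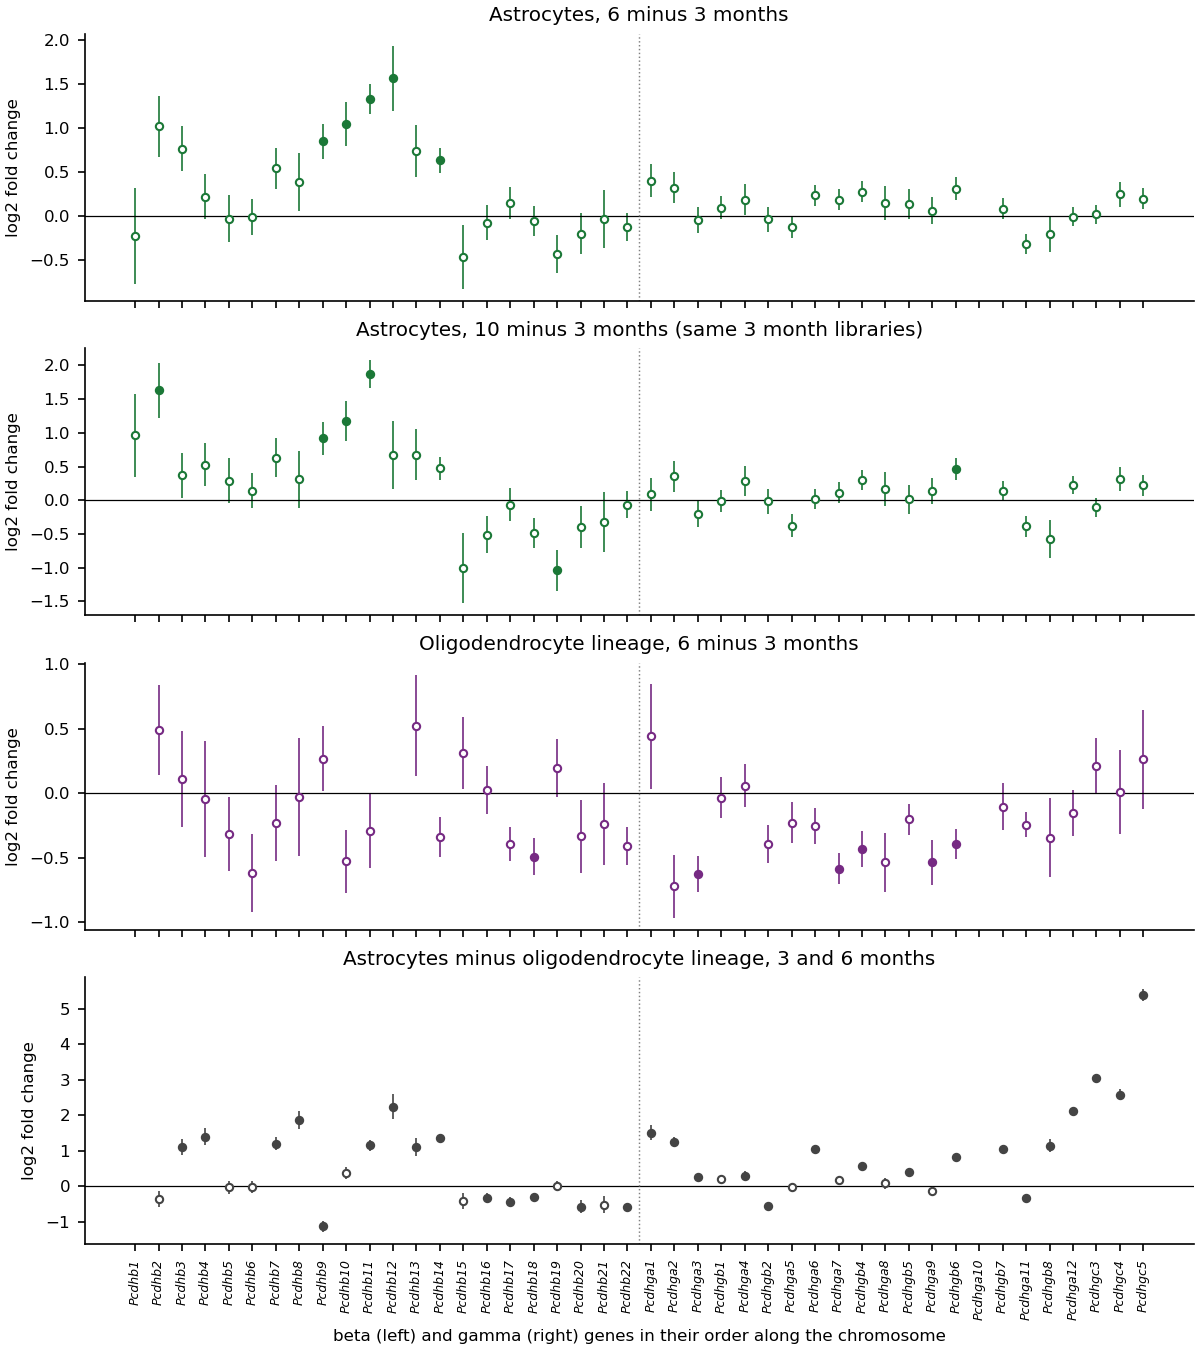
Log2 fold change with its SE for the tested beta and gamma genes in chromosomal order. Filled points have an adjusted p under 0.05 in edgeR's quasi-likelihood test over all genes. The first 2 panels share the 4 astrocyte libraries of 3 months. In astrocytes the beta genes filled as higher are Pcdhb9 to Pcdhb12 and Pcdhb14 at 6 months, and Pcdhb2 and Pcdhb9 to Pcdhb11 at 10 months. At 6 months Pcdhb2 (1.02) and Pcdhb3 (0.77) also lie above 0, unfilled. The lowest panel rises to 5.38 at Pcdhgc5.

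Between 3 and 6 months, 5 beta protocadherins rose in astrocytes, and 4 of them, Pcdhb9, Pcdhb10, Pcdhb11 and Pcdhb12, are consecutive genes. The fifth, Pcdhb14, lies 2 genes further on. Outside this stretch Pcdhb2 was higher without overlap but missed the test (1.02 ± 0.35, SE, adjusted p = 0.0583, edgeR). Pcdhb3 also missed it (0.77 ± 0.26, 0.0558), with overlapping groups. None of the 44 tested members was called lower, and no gamma gene passed the test. Log2 changes were below 0 for 16 of the 44. Among these Pcdhga11 was lower without overlap at 6 months (-0.31 ± 0.11, SE, adjusted p = 0.0728, edgeR). It was also lower without overlap at 10 months (-0.39 ± 0.15, 0.0683). The background was 14.6% of 16189 genes called, 6.28% higher and 8.29% lower. Groups did not overlap for 7 of the 44, against 13.1% of all genes. The members' median log2 change was 0.15, against 0.00 over all genes. Of the 22 tested beta genes 12 were above 0.

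Pcdhb11 gave the clearest change. It was 3.34, 2.84, 2.85 and 2.85 CPM in the 4 libraries of 3 months, 6.28, 8.79, 7.23, 6.62 and 8.59 CPM at 6 months, and 11.01 and 10.7 CPM at 10 months. The 3 ages did not overlap at all. The log2 change was 1.33 ± 0.17 at 6 months (SE, adjusted p = 5.45e-04) and 1.87 ± 0.20 at 10 months (adjusted p = 5.57e-05).

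Pcdhb10 was 2.91, 2.03, 3.39 and 2.80 CPM at 3 months, 6.43, 9.27, 5.19, 4.02 and 4.88 CPM at 6 months, and 5.45 and 7.13 CPM at 10 months. Both older groups lay above all libraries of 3 months, and overlapped each other. The log2 change was 1.04 ± 0.25 at 6 months (adjusted p = 0.0101) and 1.18 ± 0.30 at 10 months (adjusted p = 0.0106).

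Pcdhb9 was 3.12, 2.98, 2.71 and 3.11 CPM at 3 months, 5.08, 5.75, 4.20, 6.23 and 5.81 CPM at 6 months, and 6.95 and 4.44 CPM at 10 months. Again both older groups lay above the youngest. The log2 change was 0.85 ± 0.20 (adjusted p = 0.0103) and 0.92 ± 0.25 (adjusted p = 0.0148).

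Pcdhb12 was scarce, at 1.08, 0.135, 0.542 and 0.881 CPM at 3 months, 1.20, 2.40, 2.16, 2.27 and 2.44 CPM at 6 months, and 1.28 and 1.02 CPM at 10 months. Only the 6-month libraries were all above those of 3 months, and the log2 change was 1.56 ± 0.37 (adjusted p = 9.95e-03). Only 36.5% of its exon bases are free of other annotated genes. Pcdhb14, the highest beta gene of astrocytes by mean TPM at 6 and 10 months, was 18.7, 13.8, 18.6 and 15.9 CPM at 3 months, 22.9, 34.5, 25.5, 22.6 and 25.2 CPM at 6 months, and 25.8 and 20.7 CPM at 10 months. Its log2 change at 6 months was 0.63 ± 0.14 (adjusted p = 6.19e-03).

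**Figure D4:**
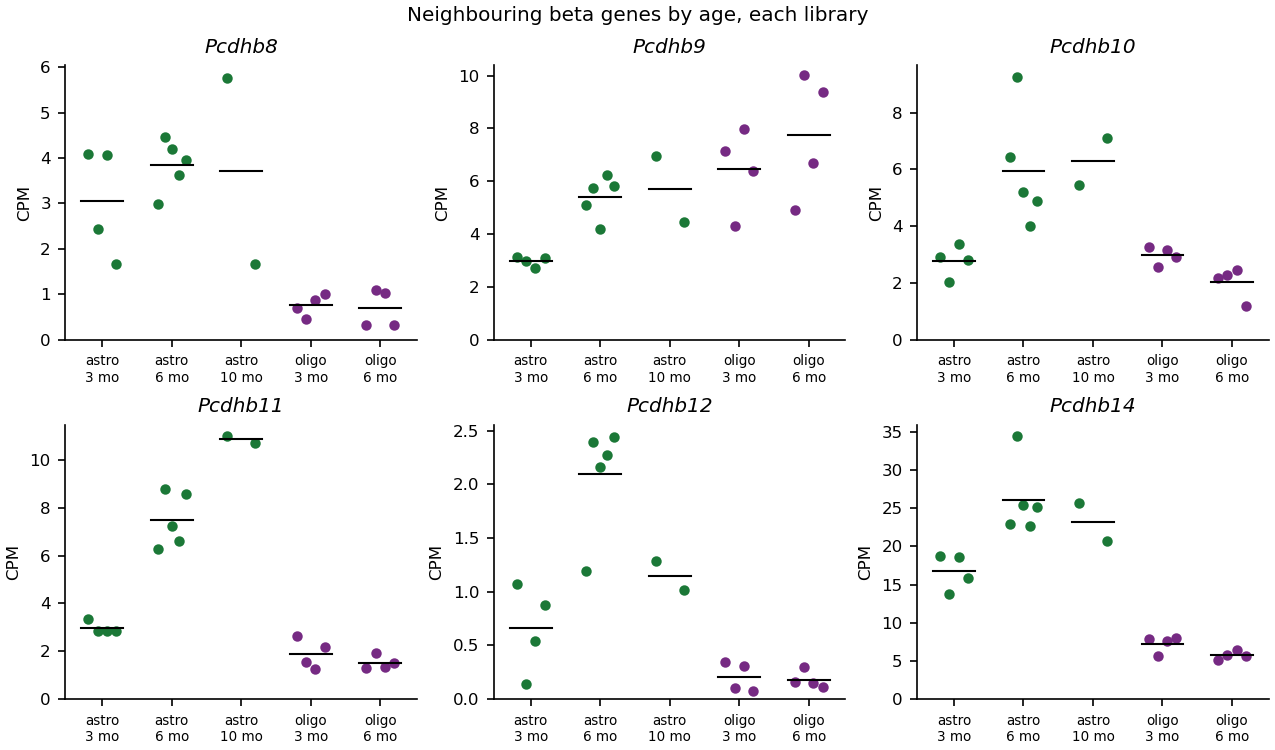
Level of 6 beta genes in each astrocyte and oligodendrocyte library by age, in CPM from 0, with a bar at each group mean (scaled within each table). Pcdhb9, Pcdhb10, Pcdhb11, Pcdhb12 and Pcdhb14 are higher in astrocytes at 6 than at 3 months, whereas Pcdhb8 spans 1.66 to 4.09 CPM at 3 months and 2.99 to 4.47 CPM at 6 months.

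At 10 months, with the same 3-month libraries, 5 members were higher and 1 lower among 44 tested, against 22.7% of all genes called, 11.5% higher and 11.2% lower. Groups did not overlap for 16 of the 44, against 45.4% of all genes. Beside Pcdhb9, Pcdhb10 and Pcdhb11, Pcdhb2 was higher, at 3.95 and 1.48 CPM against 1.18, 0.542, 0.949 and 0.777 CPM (log2 change 1.63 ± 0.41, adjusted p = 9.45e-03). Pcdhgb6 was also higher, at 38.5 and 31.0 CPM against 23.0, 25.2, 27.0 and 25.6 CPM (0.46 ± 0.16, adjusted p = 0.0489). Pcdhb19 was lower, at 2.14 and 1.67 CPM against 3.34, 4.06, 3.52 and 4.51 CPM (-1.04 ± 0.30, adjusted p = 0.0205). The 10-month group rests on 2 libraries, and leaving out either leaves 1, so no calls are given for those fits. How far the calls at 10 months depend on a single library of that age could therefore not be judged. Pcdhb19 was lost without library 4 of 3 months (adjusted p = 0.0542, edgeR). Pcdhgb6 failed the test in 11 of 19 alternative analyses, among them every one without a 3-month library. Between 6 and 10 months no member was called among 44 (1 had an unadjusted p under 0.05), against 0.908% of all genes, and DESeq2 and limma-voom also called none.

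The C-type genes, among them Pcdhgc3 and Pcdhgc5, which led by TPM, did not pass the age test in astrocytes. Pcdhgc3 was 157, 165, 162 and 114 CPM at 3 months, 154, 137, 152, 147 and 166 CPM at 6 months, and 151 and 126.5 CPM at 10 months. The groups overlapped, with log2 changes of 0.02 ± 0.11 (adjusted p = 0.921) and -0.10 ± 0.14 (0.637). Pcdhgc4 had log2 changes of 0.25 ± 0.14 (0.246) and 0.32 ± 0.18 (0.208), and Pcdhgc5 of 0.20 ± 0.12 (0.278) and 0.22 ± 0.15 (0.311). Pcdhac2 had 0.57 ± 0.44 (0.419) and -0.15 ± 0.62 (0.887), at under 2 CPM.

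Levels of other cell types also moved with astrocyte age. At 6 against 3 months, 4 of 8 myelin markers, 4 of 14 tested neuronal markers and 2 of 8 endothelial markers were lower, and 3 of 8 choroid plexus and ependymal markers were higher and 1 lower. Of 7 tested microglial markers 1 was higher, and 1 of 3 markers of the oligodendrocyte lineage was lower. At 10 months 4 myelin markers, 2 endothelial markers and 1 of 10 astrocyte markers were lower, and 2 microglial markers and 1 neuronal marker were higher. Of the choroid plexus and ependymal markers 1 was higher and 2 lower at that age, as were 1 and 2 of 8 tested mural and fibroblast markers. The myelin sum was 21605 to 34033 CPM at 3 months, 14745 to 22212 CPM at 6 months and 15181 to 23678 CPM at 10 months. The neuronal sum was 125 to 151 CPM at 3 months, 98.9 to 152 CPM at 6 months and 137 to 154 CPM at 10 months. Of 8 markers of oligodendrocyte precursors 3 were higher at 10 months (sums 36.1 to 66.3 CPM at 3 months and 67.6 to 70.6 CPM at 10 months). The endothelial sum was 168 to 325 CPM, 121 to 281 CPM and 108 to 178 CPM at the 3 ages. Microglial markers summed to 213 to 284 CPM and mural and fibroblast markers to 344 to 509 CPM over all 3 ages. No marker of these lists was at 0. Their part in the protocadherin changes was not tested.

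In O4 cells the members called with age all fell, and 5 of the 6 were gamma genes. At 6 against 3 months 6 of the 41 tested members were called lower and none higher, against 24.4% of 14050 genes called, 9.46% lower and 14.9% higher. The members' median log2 change was -0.24, against 0.02 over all genes, and 29 of 41 were below 0. Groups did not overlap for 7 of the 41, against 26.5% of all genes. Pcdhga7 was 18.4, 16.9, 15.2 and 21.2 CPM at 3 months and 10.8, 12.3, 11.95 and 12.6 CPM at 6 months, without overlap (log2 change -0.59 ± 0.12, adjusted p = 6.16e-03). Pcdhga3 was 9.15, 9.72, 8.42 and 9.18 CPM and then 6.62, 6.04, 4.68 and 6.32 CPM, also without overlap (-0.63 ± 0.14, adjusted p = 0.0103). These 2 genes passed in all 15 alternative analyses.

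The other 4 were Pcdhb18 (-0.49 ± 0.14, adjusted p = 0.0296), Pcdhga9 (-0.54 ± 0.18, 0.0478), Pcdhgb4 (-0.43 ± 0.14, 0.0456) and Pcdhgb6 (-0.39 ± 0.12, 0.0353). Pcdhb18 fell from 11.5 to 17.2 CPM to 9.52 to 11.9 CPM, and Pcdhgb6 from 12.8 to 15.9 CPM to 9.78 to 12.3 CPM. Each of these 4 missed the test in 5 to 9 of the 15 alternatives. With a library left out, the lost calls had adjusted p from 0.0519 to 0.127 (edgeR). The number of members called was 2 without the first or the fourth 3-month library, with 2214 of 14359 and 2699 of 14427 genes called in all. It was 3 without the third 3-month or the third 6-month library, with 2348 of 14331 and 2707 of 14244 genes. C-type genes did not pass: Pcdhgc3 was 16.8, 9.98, 17.0 and 10.6 CPM at 3 months and 11.1, 17.8, 15.7 and 18.3 CPM at 6 months (log2 change 0.21 ± 0.22, adjusted p = 0.518), Pcdhgc4 gave 0.01 ± 0.33 (0.987) and Pcdhgc5 0.26 ± 0.38 (0.659). Vascular markers rose in the same comparison. All 8 endothelial markers were higher at 6 months (sums 59.6 to 77.8 CPM, then 218 to 607 CPM), as were 4 of 6 tested mural and fibroblast markers, 1 of 6 tested choroid plexus and ependymal markers and 7 of 14 neuronal markers (206 to 231 CPM, then 221 to 314 CPM), of which 1 was lower. Of 8 myelin markers 5 were lower and 2 higher (sums 74634 to 103453 CPM, then 102137 to 163846 CPM), and 2 of 8 precursor markers and 2 of 8 microglial markers were lower. Their part in the fall was not tested.

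The age effects of the 2 cell types were compared directly, as the astrocyte change from 3 to 6 months minus that of the oligodendrocyte lineage. Of 43 tested members 10 were called with a more positive change in astrocytes and none with a more negative one. Of 16363 genes 16.4% were called, 6.44% more positive and 9.97% more negative. The median difference was 0.45 on the log2 scale, against 0.02 over all genes, and 38 of 43 were above 0. Of those called, Pcdhb11 (1.70 ± 0.32, SE, adjusted p = 1.22e-03) and Pcdhb10 (1.66 ± 0.36, 3.21e-03) differed most. In O4 cells Pcdhb11 was 2.63, 1.54, 1.28 and 2.16 CPM at 3 months and 1.29, 1.93, 1.34 and 1.52 CPM at 6 months, and Pcdhb10 was 3.26, 2.56, 3.16 and 2.93 CPM and then 2.18, 2.29, 2.45 and 1.20 CPM. Pcdhb14 (1.06 ± 0.21, 1.60e-03), Pcdhga2 (1.12 ± 0.30, 0.0156), Pcdhga7 (0.86 ± 0.17, 1.64e-03), Pcdhgb4 (0.79 ± 0.18, 5.42e-03) and Pcdhgb6 (0.79 ± 0.19, 6.93e-03) also passed in every one of the 24 alternatives run, as did Pcdhb10 and Pcdhb11. Pcdhga3 (0.67 ± 0.21, 0.0372), Pcdhga9 (0.69 ± 0.22, 0.0368) and Pcdhga6 (0.57 ± 0.19, 0.0443) missed the test in 12, 14 and 17 of them, with adjusted p from 0.0537 to 0.127. Pcdhac2 (0.82 ± 0.64, adjusted p = 0.416), Pcdhgc3 (-0.10 ± 0.24, 0.812), Pcdhgc4 (0.32 ± 0.32, 0.532) and Pcdhgc5 (-0.01 ± 0.30, 0.991) did not pass. Markers called more negative were 8 of 8 endothelial, 6 of 8 mural and fibroblast, and 8 of 15 neuronal. So were 2 of 8 choroid plexus and ependymal and 2 of 8 myelin markers. More positive were 2 of 10 astrocyte, 3 of 8 microglial and 1 of 8 precursor markers. Their part in the difference was not tested.

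In microglia no member passed the test at 10 against 3 months. Only 11 of the 58 rows passed the filter, Pcdhb22 and 10 gamma genes, and 3.21% of the 12320 genes tested were called, 1.94% higher and 1.27% lower. All 11 log2 changes were above 0, from 0.08 to 2.10, with a median of 0.54 against 0.00 over all genes. None had an unadjusted p under 0.05, and DESeq2 and limma-voom also called none. The filter chose these 11 by their counts, so their shared direction is no result about the family. Among the members it left out, Pcdhga1 was 1.26, 1.58 and 1.61 CPM at 3 months and 0, 0.364, 0.180 and 0 CPM at 10 months. Pcdhga8, also left out, went the other way, at 0.181, 0 and 0.921 CPM and then 1.03, 0.547, 5.77 and 1.02 CPM. The smallest adjusted p was 0.393, for Pcdhgb8, at 0, 2.48 and 0 CPM at 3 months and 2.67, 3.10, 5.05 and 3.41 CPM at 10 months (log2 change 2.10 ± 1.18). It was the only member whose groups did not overlap, against 16.8% of all genes. Without the second 3-month library it was called (adjusted p = 0.0313, edgeR), all remaining 3-month libraries being at 0. Pcdhgc4 (log2 change 0.08 ± 0.69, adjusted p = 0.972) and Pcdhgc5 (0.74 ± 1.05, 0.778) were the C-type genes tested. The standard errors of these 3 genes ran from 0.69 to 1.18 on the log2 scale, so a 2-fold change in them was not detectable at this depth.

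In cultured astrocytes Omomyc changed no member detectably. Of 54 tested, none passed, 1 had an unadjusted p under 0.05, and the median log2 change was 0.06. Groups did not overlap for 3 of the 54, against 12.8% of all genes. Only 3 of 16119 genes, 0.0186%, were called in all. The replicate numbers paired the cultures here, and the fit with the replicate block called 656 genes but again no member, and DESeq2 (97 genes) and limma-voom (2 genes) called none of the members either. The values of single members given here are from the edgeR fit without the block. In it the member with the smallest p was Pcdha4, at 0.541 to 0.816 CPM with vehicle and 1.19 to 1.57 CPM with Omomyc (log2 change 0.94 ± 0.25, adjusted p = 0.589). Pcdhgc3 had a log2 change of 0.21 ± 0.11 (adjusted p = 0.792), Pcdhgc5 of -0.12 ± 0.15 (0.909), Pcdhac2 of -0.31 ± 0.15 (0.786) and Pcdhac1 of -0.40 ± 0.33 (0.865).

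**Figure D5:**
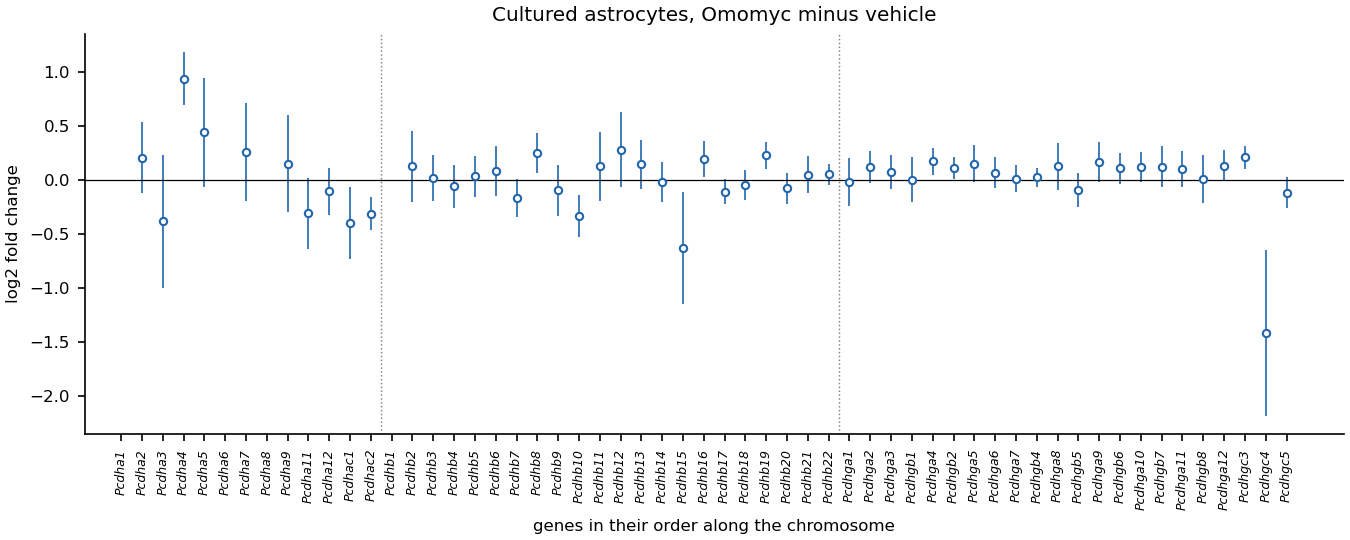
Log2 fold change with its SE for the tested members in cultured astrocytes, Omomyc minus vehicle (3 libraries each), in chromosomal order. Open points did not pass the test, which holds for all of them, and Pcdha11 is drawn for the more abundant of its identifiers. Most lie close to 0, and Pcdhgc4 lies lowest at -1.42 with an SE of 0.77.

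Vehicle culture 2 stood apart within the gamma cluster. Pcdhgc4 was 39.0, 256 and 35.9 CPM with vehicle and 46.0, 47.1 and 30.8 CPM with Omomyc, so that its log2 change of -1.42 ± 0.77 (adjusted p = 0.813) became 0.14 without that library. It took 19.8% of the gamma counts in vehicle culture 2 (8145 counts) and 2.34% to 3.41% in the other 5. The other 21 gamma genes went the opposite way: each had its lowest level of the 6 libraries in vehicle culture 2, and together they summed to 1037 CPM there and 1245 to 1436 CPM in the others. The sum of the whole cluster in that library, 1293 CPM, lay within the range of the other 5 (1281 to 1482 CPM). No other gene of the table with at least 10 CPM stood 4-fold above all other libraries in vehicle culture 2. The 22 gamma genes had a median log2 change of 0.11 with Omomyc over all libraries, with 18 above 0, and of -0.03 without vehicle culture 2, with 9 above 0. Leaving out vehicle culture 1 gave 0.24, with 21 above 0, and leaving out Omomyc culture 1 gave 0.05, with 15 above 0.

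Protocadherins outside the clusters also changed with age. Of the 11 listed, 3 were called lower and none higher in astrocytes at 6 months, against 8.29% of all genes lower. At 10 months 5 were called lower, against 11.2%. Their median log2 changes were -0.28 and -0.78, against 0.00 and 0.02 over all genes. Pcdh9, a delta protocadherin of many brain cells, fell from 376 ± 57.0 CPM at 3 months (SD, n = 4) to 224 ± 17.1 CPM at 6 months (log2 change -0.75 ± 0.11, adjusted p = 8.12e-04) and 205 ± 25.8 CPM at 10 months (-0.87 ± 0.14, adjusted p = 7.70e-04). Pcdh18 fell at both ages (-0.57 ± 0.17, adjusted p = 0.0350, and -1.14 ± 0.24, 3.29e-03). Pcdh19, mutated in an epilepsy of girls, fell at 10 months (-1.01 ± 0.18, 1.37e-03), as did Pcdh20 (-1.06 ± 0.24, 5.89e-03). Pcdh12, a vascular protocadherin, fell at 6 months (-1.86 ± 0.57, 0.0365). It was scarce, at means of 0.283 CPM against 1.09 CPM at 3 months, and was not called at 10 months (adjusted p = 0.203, edgeR). In O4 cells, with 9.46% of all genes lower and 14.9% higher, Pcdh9 (-0.48 ± 0.08, 2.49e-03) and Pcdh20 (-1.63 ± 0.39, 0.0126) fell. Pcdh18 (2.16 ± 0.36, 2.30e-03) and Pcdh19 (0.74 ± 0.17, 0.0103) rose. Means there were low for Pcdh20 (2.10 CPM at 3 months, 0.689 CPM at 6 months) and Pcdh18 (0.931 CPM, then 4.17 CPM). Between the cell types 6 of 10 tested were higher in astrocytes and 2 lower, near the 74.6% of all genes called, led by Pcdh20 (3.95 ± 0.21, 8.71e-13), Pcdh1 (2.15 ± 0.09, 1.14e-14) and Pcdh10 (1.82 ± 0.08, 1.38e-14), with Pcdh9 lower (-1.17 ± 0.07, 3.31e-12).

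Genes that regulate the clusters, such as CTCF, cohesin and DNA methylation enzymes, fell with astrocyte age where they passed the test, with 1 exception. Of 27, 6 were lower at 6 months, against 8.29% of all genes, and 9 were lower and 1 higher at 10 months, against 11.2% and 11.5%. The median log2 changes were -0.17 and -0.23. At 6 months these included the cohesin genes Smc1a (-0.39 ± 0.08, adjusted p = 5.85e-03) and Rad21 (-0.29 ± 0.08, 0.0231) and the cohesin-associated Pds5b (-0.49 ± 0.11, 7.74e-03) and Pds5a (-0.41 ± 0.11, 0.0186). At 10 months the DNA demethylase Tet1 (-0.70 ± 0.15, 2.95e-03), the cohesin subunit Stag2 (-0.58 ± 0.13, 4.26e-03) and the cohesin loader Nipbl (-0.51 ± 0.12, 5.56e-03) were lower and the histone methyltransferase Ehmt2 higher (0.70 ± 0.12, 8.13e-04). Among O4 cells 1 of 26 was lower, the repressor Rest (-0.39 ± 0.08, 7.11e-03), against 9.46% of all genes. In microglia 1 of 26 was lower, against 1.27%: Smchd1 (-0.49 ± 0.13, 0.0484), a chromatin protein known to silence the clusters. Between the cell types 5 were higher in astrocytes, among them Tet2 (0.71 ± 0.08, 4.93e-08), and 17 lower, among them Rad21 (-0.66 ± 0.05, 1.55e-10), Wiz (-0.58 ± 0.06, 6.19e-08) and Ctcf (-0.55 ± 0.06, 8.95e-08). The shares over all genes there were 38.7% higher and 35.9% lower.

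Of 23 partners and processing enzymes of the proteins, 5 were lower in astrocytes at 6 months, against 8.29% of all genes, and 8 lower and 1 higher at 10 months, against 11.2% and 11.5%. The median log2 changes were -0.19 and -0.27. Adam10, the protease that sheds gamma protocadherins, was lower at both (-0.51 ± 0.09, adjusted p = 1.77e-03, and -0.66 ± 0.12, 1.10e-03), as was Wasf1 of the actin-regulating WAVE complex (-0.38 ± 0.10, 0.0185, and -0.59 ± 0.13, 5.27e-03). Also lower at 6 months were Ret (-1.96 ± 0.35, 2.37e-03) and the focal adhesion kinase Ptk2 (-0.39 ± 0.08, 3.82e-03). Ret was scarce, at means of 0.706 CPM at 6 months and 2.69 CPM at 3 months. At 10 months Abi2, another WAVE gene, was lower (-0.54 ± 0.13, 8.78e-03) and Nlgn2, which encodes neuroligin 2, higher (0.66 ± 0.11, 8.49e-04). With age Ret rose in O4 cells (2.005 ± 0.26, 5.85e-04) and 5 fell, among them Ptk2b (-0.81 ± 0.17, 6.50e-03) and Abi2 (-0.34 ± 0.09, 0.0233), against 14.9% of all genes higher and 9.46% lower. Between the cell types 3 were higher in astrocytes and 15 lower, against 38.7% and 35.9% of all genes, with Nlgn1 (1.47 ± 0.09, 2.09e-12) and Cyfip1 (1.17 ± 0.07, 2.32e-12) higher and Cyfip2 (-1.98 ± 0.09, 6.11e-14) and Ptk2b (-2.27 ± 0.14, 4.41e-12) lower. Of 17 genes that flank the clusters none was called at 6 or 10 against 3 months in astrocytes among the 16 tested (edgeR, with an unadjusted p under 0.05 for 1, Zmat2, at 10 months), against 14.6% and 22.7% of all genes. With age in O4 cells 3 of 15 were, against 24.4% of all genes: Arap3 (2.69 ± 0.30, adjusted p = 3.64e-04) and Diaph1 (0.61 ± 0.08, 7.13e-04) rose, and Taf7, which lies within the protocadherin region, fell (-0.52 ± 0.13, 0.0139). None of the 4 lists had a member called in culture.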

How the data were processed

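Per the labels' protocols, sorted astrocytes and oligodendrocyte-lineage cells were sequenced with the Lexogen CORALL poly(A) kit with molecular identifiers, microglia with the QuantSeq 3′ kit and cultures with the Watchmaker kit and Twist identifiers. Tools listed by the submitters' processing notes were UMI-tools 1.0.1, featureCounts 2.0.1, STAR 2.7.7a, fastp and DESeq2. Which of the listed builds (mm10, GRCm38.p6, GRCm39) served which table is not stated there. The authors deposited raw counts per gene for all libraries and TPM for both sorted tables from cortices and spinal cords; strand and the handling of shared reads are not given by the labels. The length behind TPM was within 5% of the vM21 exon length for 99.0% of 14406 astrocyte genes and 99.1% of 12763 oligodendrocyte genes. Identifiers were matched to symbols for 52093 of 53700 microglia rows and 17559 of 17572 culture rows.

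Counts were tested with edgeR 4.0.16 (R 4.3.3; TMM, filterByExpr at a minimum count of 10, robust quasi-likelihood test, Benjamini-Hochberg over all genes of a table), with a threshold of 0.05 on adjusted p and SE as the log2 change over the root of F. The 3 astrocyte ages shared one fit, and both sorted tables were joined for the cell-type comparison. Alternatives were DESeq2 1.42.0, limma-voom 3.58.1, RLE scaling, other filters, omission of genes above 1% of counts, a replicate block and leaving out each library. Simulated data tested the fits. Same-numbered cultures deviated together (Pearson's r of deviations from group means 0.432 to 0.682 for 3 pairs), so there the numbers pair the libraries. No libraries of a group agreed within sampling noise. The members and lists were chosen with earlier results of these data known, so p-values are no independent evidence for the choice. Named were all called members up to 12 per comparison (otherwise 6 each way by size of change), the C-type genes, the 3 highest of each cluster per table and up to 4 called genes of each list with the smallest p. One gene listed beside the clusters lies on another chromosome and was left out.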

Additional observations from a re-analysis of the deposited data

Results flagged for a closer look

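For 10 members, each named here, astrocytes had an age effect that differed from that in the oligodendrocyte lineage, by a test of the difference: on the log2 scale Pcdhb10 (1.66), Pcdhb11 (1.70), Pcdhb14 (1.06), Pcdhga2 (1.12), Pcdhga3 (0.67), Pcdhga6 (0.57), Pcdhga7 (0.86), Pcdhgb4 (0.79), Pcdhga9 (0.69) and Pcdhgb6 (0.79). Single libraries were flagged by Dixon's test for 11 of the 118 values checked (named members and cluster sums with a mean of at least 1 CPM), while chance flags about 1 in 20. The test sets the gap to the nearest library against the range of the group, so a flagged difference can be small. In astrocytes at 3 months, library 1 was the highest for Pcdhb11 (3.34 CPM), and library 4 the lowest for Pcdhgc3 (114 CPM) and for the summed gamma cluster (417 CPM). In astrocytes at 6 months, library 1 was the lowest for Pcdhb12 (1.20 CPM), library 2 the highest for Pcdhb14 (34.5 CPM), and library 4 the highest for Pcdhb22 (8.82 CPM) and the summed alpha cluster (4.22 CPM). In the oligodendrocyte lineage, library 2 of 3 months was the lowest for Pcdhb14 (5.68 CPM), library 4 of 3 months the highest for Pcdhb17 (11.2 CPM) and library 1 of 6 months the lowest for the summed beta cluster (56.3 CPM). In microglia at 10 months, library 2 was the highest for Pcdhga3 (10.6 CPM). Vehicle culture 2, with its Pcdhgc4 level, falls outside this check, which needs at least 4 libraries in a group.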

How the results depend on the processing

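Counts of members called stayed within 1.5 times the main count under every alternative for astrocytes at 6 months (5 to 6 called), astrocytes against the oligodendrocyte lineage (27 to 31) and the difference of age effects (7 to 10). Calls over all genes ran from 1161 to 2637, from 11827 to 13909 and from 2089 to 3508 in these comparisons. In the oligodendrocyte lineage the 6 calls, with 3425 of 14050 genes called in all, became 11 with a 1 CPM filter (3567 of 13340 genes). They became 11 without genes above 1% of counts (3659 of 14113 genes) and 3 with limma-voom (3291 of 14050 genes). With a library left out they ranged from 2 to 6, and calls over all genes from 2214 to 4925. Leaving out a 3-month or 6-month library gave at most 7 calls for astrocytes at 10 months, with 2901 to 4340 genes called in all. Leaving out a 10-month library leaves 1 in that group, so no count is given. For microglia, leaving out a library gave 0 to 1 calls, with 51 to 396 genes called in all. Of 39 called values named, 27 stayed called in every alternative. Per kilobase of unshared exon, a scale chosen after seeing the data, beta and gamma shares of the summed level were 10.3% and 89.1% in astrocytes (20.4% and 79.1% by TPM) and 18.02% and 81.2% in the oligodendrocyte lineage (32.8% and 66.6%).

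Outside the cultures, same-numbered libraries did not deviate together (r from -0.0881 to 0.130 between astrocytes of 3 and 6 months, -0.121 to 0.176 for the oligodendrocyte lineage, -0.0394 to 0.0235 for microglia). The 2 numbers shared by astrocytes of 3 and 10 months gave -0.175 and -0.113, and no crossed pairing was fitted. The replicate block called 5 members for astrocytes at 6 months, 4 at 10 months, 0 at 10 against 6 months, 4 for the oligodendrocyte lineage, 0 for microglia and culture, 30 between cell types and 7 for the difference of age effects. Over all genes the block called 2152, 2919 and 56 of 16189 in the astrocyte comparisons and 2943 of 14050 in the oligodendrocyte lineage. In microglia it called 211 of 12320, in culture 656 of 16119, between cell types 11985 of 16363 and for the difference 2672 of 16363. With the block Pcdhb10 and Pcdhb19 missed the test at 10 months (adjusted p = 0.0658 and 0.0755, edgeR).

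Among the members named, the values that changed sign were all of C-type genes and passed no test. This follows from the naming, because the uncalled values followed through the alternatives were those of C-type genes only. It is therefore no trait of these genes. Among all 22 gamma genes in culture the number above 0 moved from 18 to 9 without vehicle culture 2. The block gave -0.00239 for Pcdhgc3 in astrocytes at 6 months and -0.0105 for Pcdhgc5 at 10 against 6 months (-0.00276 with only those ages fitted). Pcdhgc4 in the oligodendrocyte lineage gave -0.00278 with RLE scaling, -0.0450 without a filter, -0.0376 with the 1 CPM filter, -0.00364 with DESeq2, -0.0567 with limma-voom, -0.0417 with the block and -0.0429 without genes above 1%. For the difference of age effects Pcdhgc5 gave 0.0432 without a filter and 0.0278 with limma-voom. With a library left out, log2 values ranged as follows. Astrocytes at 6 months gave -0.0711 to 0.10 for Pcdhgc3. At 10 months Pcdhac2 ran from -0.83 to 0.36 and Pcdhgc3 from -0.24 to 0.0229. At 10 against 6 months Pcdhgc3 ran from -0.26 to 0.00205, Pcdhgc4 from -0.0839 to 0.21 and Pcdhgc5 from -0.11 to 0.14. The oligodendrocyte lineage gave -0.32 to 0.17 for Pcdhgc4 and -0.0598 to 0.53 for Pcdhgc5. Pcdhgc4 ran from -0.23 to 0.49 in microglia and from -1.83 to 0.14 in culture, where Pcdhgc5 ran from -0.24 to 0.00958. Pcdhac2 ran from -0.0222 to 0.33 between cell types, and the difference of age effects from -0.23 to 0.0215 for Pcdhgc3 and -0.31 to 0.31 for Pcdhgc5. The cause was not tested. Counts were low for the alpha genes in sorted cells and for most members in microglia, and the 10-month astrocytes rest on 2 libraries.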
